A study of Rattus norvegicus with 6 samples.

Results

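Il33 encodes interleukin 33, a cytokine of the interleukin 1 family, Il1rl1 encodes its receptor ST2, and Il1rap encodes the accessory chain that joins ST2 in the signalling complex. These 3 genes of 14217 measured were described here through 6 probe sets of 31099, 2 for each gene, and all 6 are mapped by the platform annotation to that symbol alone. The genes were chosen by their values in the same comparison that is described below, TDECC against TDESM, with earlier results of these arrays known. Their differences are therefore given as a description, with no test.

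RNA was measured on rat expression arrays, 3 for each of 2 clonal cell strains that grew from tumours of the bile duct in young adult male Fischer 344 rats. The tumours followed inoculation of BDEsp cells, cholangiocytes (cells lining bile ducts) that had transformed spontaneously. BDEsp-TDECC, called TDECC, is a cholangiocarcinoma (bile duct cancer) strain, and BDEsp-TDESM, called TDESM, is a cancer-associated fibroblastic strain named in the labels for its overexpression of Acta2, smooth muscle actin. The labels give both strains the same 3-dimensional culture in rat collagen type I gel and the same TGF-beta inhibitors, SB 431542 and LY2157299, without saying which cultures received them. The culture is described as a co-culture, without saying which cells were grown together. Each strain is a single clone, and the labels do not say whether the 3 arrays of a strain had cultures of their own. The p-values below therefore cover no more than the variation from array to array, which could be purely technical.

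Interleukin 33 is stored in the nucleus of epithelial, endothelial and stromal cells and is released when they are damaged, which is why it is called an alarmin. Outside the cell it binds ST2, and the complex with the accessory chain recruits MyD88 and IRAK kinases through TRAF6 to NF-kB and MAP kinases. Il1rl1 also gives a secreted form of ST2 that binds interleukin 33 without signalling. In the bile duct, interleukin 33 is known for acting on type 2 innate lymphoid cells, whose interleukin 13 makes the biliary epithelium proliferate.

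Values are log2 expression values made by the authors with RMA, so a difference of 1 is a doubling. The array medians lay between 5.79 and 5.86, and the highest value of an array between 14.60 and 14.76. The 3 probe sets of the control transcript TrpnX, used here as a floor, read between 2.80 and 3.53. The marker readings went with the labels, though the lists were written with earlier results of these arrays known and are no independent check. By limma all 8 epithelial markers were lower in TDESM, against 20.6% of all genes, and all 8 fibroblast markers higher, against 22.1%. Krt19, a bile duct keratin, read 14.33 ± 0.19 (SD, n = 3) in TDECC and 3.58 ± 0.17 in TDESM, while Col1a2, a collagen chain, read 3.69 ± 0.51 and 14.41 ± 0.05. Acta2, the gene in the TDESM label, read 6.61 ± 0.95 and 11.60 ± 0.07.

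Il33, the ligand, lies on the plus strand of chromosome 1, and RefSeq lists 2 starts for it on build GRCr8. The promoter windows, from 250 bases before to 50 after each start, are shown because the reading of this gene differed widely between the strains. Capitals mark the motif TATAAA, the TATA box, where it occurs. The first window is chr1:237115323-237115622 and the second chr1:237134696-237134995.
Il33, first start: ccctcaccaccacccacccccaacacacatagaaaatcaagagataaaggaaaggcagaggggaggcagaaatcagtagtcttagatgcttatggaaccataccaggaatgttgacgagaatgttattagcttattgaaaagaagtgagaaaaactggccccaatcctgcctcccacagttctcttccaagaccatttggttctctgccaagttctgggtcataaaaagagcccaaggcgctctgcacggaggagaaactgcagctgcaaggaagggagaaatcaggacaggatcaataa
Il33, second start: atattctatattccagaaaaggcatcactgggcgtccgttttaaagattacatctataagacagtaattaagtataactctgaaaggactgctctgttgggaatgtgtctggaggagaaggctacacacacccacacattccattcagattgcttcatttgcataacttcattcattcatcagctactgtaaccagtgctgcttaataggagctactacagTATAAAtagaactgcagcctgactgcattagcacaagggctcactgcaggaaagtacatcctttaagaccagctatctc
The second window holds TATAAA on the strand of the gene, beginning 29 bases before the start, and the first window holds no match. TATAAA on the gene's strand between 40 and 20 bases before the start is found in 1.37% of all 33469 windows of the same length. Neither window has the AP-1 motif TGANTCA, the NF-kB consensus or the SRF CArG box on either strand, in which 7.33%, 7.51% and 1.64% of all windows have a match. TATAAA on either strand is found in 14.2%. These matches describe the letters of the windows and not binding. Which start the probe sets read was not tested.

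Il33 read far higher in the cancer cell strain. By probe set 1373970_at it stood at 14.14, 13.61 and 14.05 on TDECC replicates 1 to 3 and at 7.87, 7.86 and 8.27 on TDESM replicates 1 to 3. The lowest TDECC array lay 5.34 above the highest TDESM array, a gap many times the range within either strain (0.53 in TDECC and 0.41 in TDESM). The means were 13.93 ± 0.28 and 8.00 ± 0.23 (SD, n = 3 each), a difference of -5.93, or a 61.1-fold higher value in TDECC.

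The second Il33 probe set, 1389581_at, gave nearly the same picture, with 14.07, 13.44 and 13.62 in TDECC and 8.12, 7.95 and 8.31 in TDESM. Its means were 13.71 ± 0.32 and 8.13 ± 0.18, a difference of -5.58 or 47.9-fold. In both probe sets TDECC replicate 1 was the highest and TDECC replicate 2 the lowest array of that strain, and TDESM replicate 3 was the highest of the other. Among 31042 probe sets other than controls, ordered from the most negative difference, the pair took places 108 and 138.

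Each end of the Il33 scale has its own limit. In TDECC the gene read 0.54 to 1.16 below the highest value of the same array, so the difference may be compressed there. In TDESM it was still well above the TrpnX floor, at 7.86 to 8.31. On the same TDESM arrays Krt19 read 3.38 to 3.70 and Epcam, an epithelial adhesion protein, 3.06 to 3.28, both near that floor. Krt7, another bile duct keratin, did not go to the floor in TDESM and read 8.00 to 8.37. In RNA from whole cultures, fewer cells of a type and less RNA per cell cannot be told apart.

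**Figure D1:**
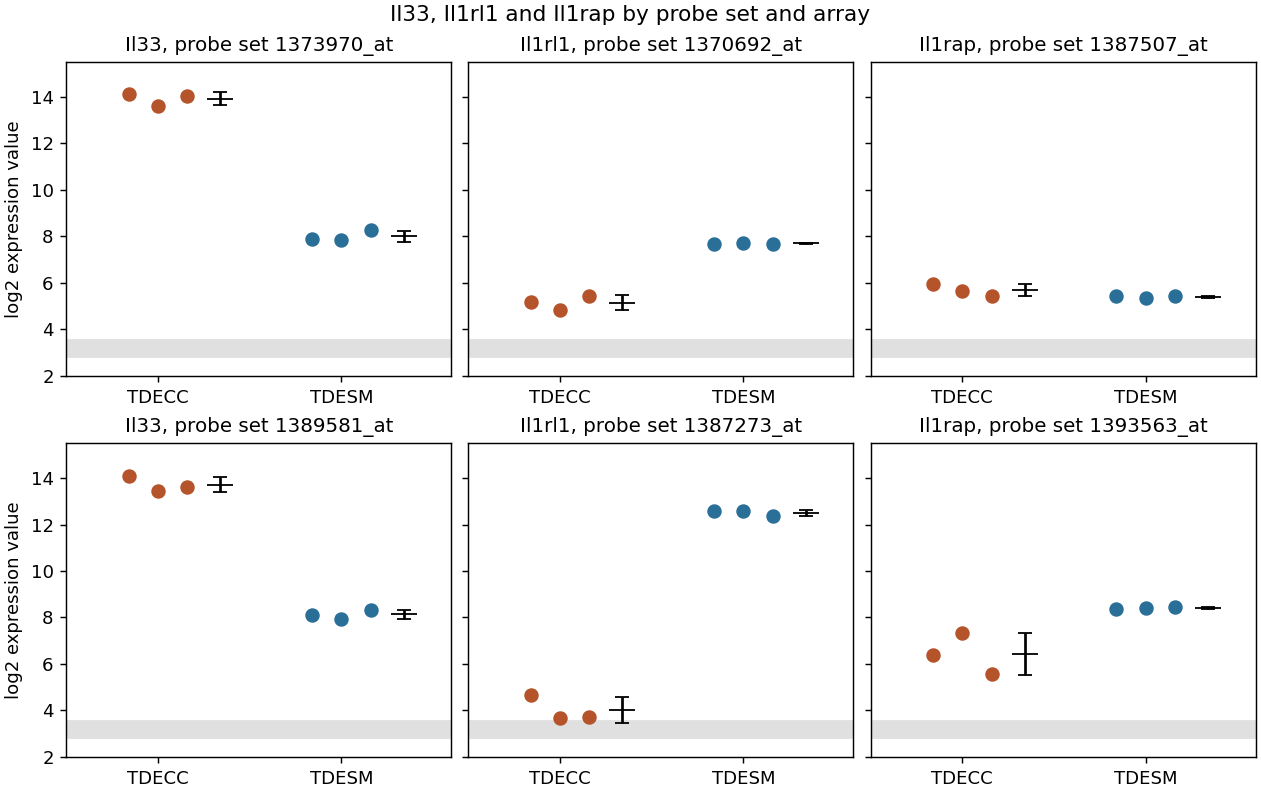
Log2 expression value of each of the 6 probe sets (panels) on each array (points), with the mean and SD of 3 arrays in black beside them. The grey band spans the TrpnX control readings, 2.80 to 3.53. Both Il33 probe sets are near 14 in TDECC and near 8 in TDESM, both Il1rl1 probe sets are higher in TDESM by different amounts, and the Il1rap probe sets differ from each other.

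Il1rl1, the gene of the ST2 receptor, lies on the plus strand of chromosome 9. Its window in the RefSeq table is chr9:50203388-50203687 on GRCr8 and is shown because this gene had the largest difference of the 3, with TATAAA matches on either strand in capitals.
Il1rl1: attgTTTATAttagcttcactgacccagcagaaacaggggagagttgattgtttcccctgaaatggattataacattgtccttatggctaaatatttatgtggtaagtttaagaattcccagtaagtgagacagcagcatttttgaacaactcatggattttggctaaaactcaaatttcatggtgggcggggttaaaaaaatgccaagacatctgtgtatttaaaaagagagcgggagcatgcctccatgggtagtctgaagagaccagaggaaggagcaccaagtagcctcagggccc
The 1 match reads TTTATA on the gene's strand, so the motif is on the other strand, 246 bases before the start and away from the usual place of a TATA box. AP-1, NF-kB and CArG matches were not found. Fit-1, the rat name of this gene, comes from its induction by Fos, and no match says only that these letters are not in this window.

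Il1rl1 showed the opposite pattern to its ligand. By probe set 1387273_at it read 4.68, 3.69 and 3.72 on the TDECC arrays and 12.58, 12.59 and 12.36 on the TDESM arrays. The strains were separated by 7.68 between the nearest arrays. The means were 4.03 ± 0.56 and 12.51 ± 0.13 (SD, n = 3 each), a difference of 8.48, or a 357-fold higher value in TDESM. This was place 28 among the 31042 probe sets from the most positive difference.

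In TDECC this probe set was close to the bottom of the scale. Replicates 2 and 3 lay just above the highest TrpnX reading of 3.53, and replicate 1 lay 0.99 above the lowest of the 3 arrays. The median of 8 fibroblast markers was also highest on TDECC replicate 1, at 4.81 against 4.30 and 4.54, while their mean was highest on replicate 3, at 5.18, 5.12 and 5.29, as was Acta2 with 7.71, and Col1a2 was highest on replicate 2, at 3.90, 4.07 and 3.11. Their part in the Il1rl1 reading was not tested. Without that array the difference was 8.81, and over all arrays left out in turn it ran from 8.31 to 8.81.

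The other Il1rl1 probe set, 1370692_at, went the same way with a smaller difference. It read 5.17, 4.83 and 5.44 in TDECC and 7.69, 7.73 and 7.67 in TDESM, and the groups did not overlap. Its means were 5.15 ± 0.31 and 7.70 ± 0.03, a difference of 2.55 or 5.86-fold, at place 1059 from the most positive. The mean over both probe sets differed by 5.52, so a single figure for the gene depends on how they are combined. Il1rl1 gives membrane-bound and secreted transcripts, and the annotation does not say which of them each probe set reads.

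Il1rap, the accessory chain shared by the receptors for interleukin 33 and interleukin 1, lies on the minus strand of chromosome 11. RefSeq lists 2 starts with overlapping windows, and the one further upstream is chr11:87704293-87704592. It is shown for its contrast in base composition with the windows of Il33 and Il1rl1, with the match to the NF-kB consensus in capitals.
Il1rap, upstream start: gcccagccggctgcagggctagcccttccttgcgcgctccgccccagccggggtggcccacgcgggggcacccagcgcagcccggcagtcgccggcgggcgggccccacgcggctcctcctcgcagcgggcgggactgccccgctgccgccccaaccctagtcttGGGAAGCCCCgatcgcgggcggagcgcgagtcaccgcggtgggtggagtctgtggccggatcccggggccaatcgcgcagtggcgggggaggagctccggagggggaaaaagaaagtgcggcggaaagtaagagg
The match begins 85 bases before the start and fits the consensus read from either strand. The G and C share of this window was 75.3%, against 47.0% and 41.0% for the Il33 windows, 42.0% for Il1rl1 and a median of 51.7% over all windows.

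The Il1rap probe sets did not give 1 answer. By 1393563_at the gene read 6.40, 7.33 and 5.55 on the TDECC arrays and 8.36, 8.39 and 8.44 on the TDESM arrays. All TDESM arrays were higher, by 1.03 between the nearest pair, and they differed among themselves by only 0.08 while the TDECC arrays spread over 1.78. The means were 6.43 ± 0.89 and 8.40 ± 0.04 (SD, n = 3 each), a difference of 1.97 or 3.92-fold. Leaving out TDECC replicate 2 gave 2.42 and leaving out TDECC replicate 3 gave 1.53.

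By 1387507_at Il1rap read 5.97, 5.67 and 5.43 in TDECC and 5.43, 5.35 and 5.43 in TDESM, so the groups overlapped. The means were 5.69 ± 0.27 and 5.40 ± 0.05, a difference of -0.29 that is about the SD of the TDECC arrays. Its sign turned to 0.19 when the arrays were centred on housekeeping genes. The mean of both probe sets, which takes in the 1.97 of 1393563_at, differed by 0.84. Without detection calls, these readings do not show whether the accessory chain was expressed in TDECC. Its probe sets had no common direction.

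Across the 3 genes, 5 of 6 probe sets had groups that did not overlap, and 48.9% of all 31042 probe sets did too. Nothing is read from this count, since the genes were chosen on this contrast. The direction of Il33 and Il1rl1, by all 4 probe sets, was the same under each other scaling of the arrays and with each array left out.

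**Figure D2:**
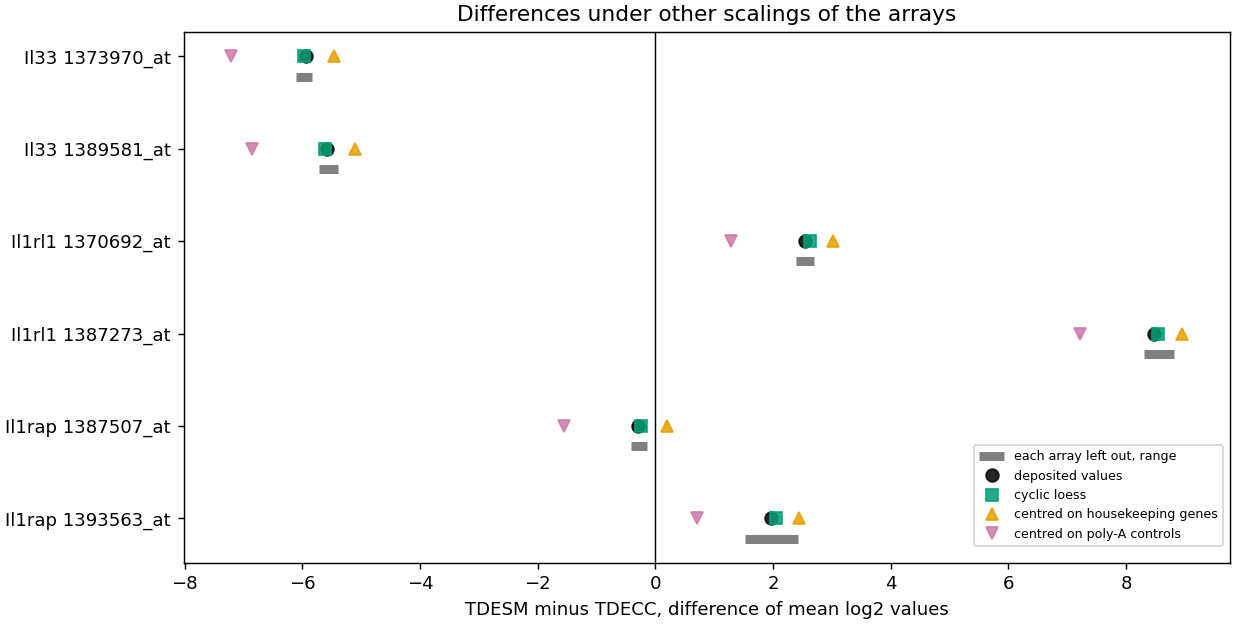
Difference in mean log2 value, TDESM minus TDECC, of each probe set (rows) with the deposited values, with cyclic loess, centred on housekeeping genes and centred on poly-A control transcripts (symbols), and the range with each array left out (grey bars). Il33 stays left of 0 and Il1rl1 right of 0 throughout, while Il1rap 1387507_at crosses 0, from -0.29 to 0.19, when centred on housekeeping genes.

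The genes closest to each of the 3 in pattern were found by the root mean square difference of centred log2 values over the 6 arrays, a measure that takes both the size of the strain difference and the order of arrays into account. It is a description over 6 arrays that share their strain, and many genes differ between these strains. For Il33 (1373970_at) the 5 closest were Krt7 (0.13), Pard6b (0.20), Lsr (0.24), Pkib (0.24) and Padi1 (0.26). Krt7, a keratin of bile duct cells, read 14.27, 13.96 and 13.95 in TDECC and 8.00, 8.06 and 8.37 in TDESM, a difference of -5.92 beside the -5.93 of Il33. Pard6b is a cell polarity protein and Lsr a protein of tricellular junctions.

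For Il1rl1 (1387273_at) the 5 closest were Inhba (0.23), Mgp (0.26), Lgals1 (0.28), Tagln (0.29) and Vldlr (0.30). Inhba, the activin A subunit, read 3.85, 3.33 and 3.65 in TDECC and 12.31, 12.25 and 11.86 in TDESM. Mgp is a matrix protein that inhibits calcification, Lgals1 a galectin, Tagln the actin-binding protein transgelin and Vldlr a lipoprotein receptor.

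For Il1rap (1393563_at) they were Slc7a5 (0.13), Foxp1 (0.15), Enpp1 (0.19), Renbp (0.21) and Tnfrsf12a (0.21). Slc7a5, an amino acid transporter, read 8.51, 9.19 and 7.74 in TDECC and 10.45, 10.58 and 10.72 in TDESM. All 5 had their highest TDECC value on replicate 2 and their lowest on replicate 3, as Il1rap did, an order that the measure itself favours.

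**Figure D3:**
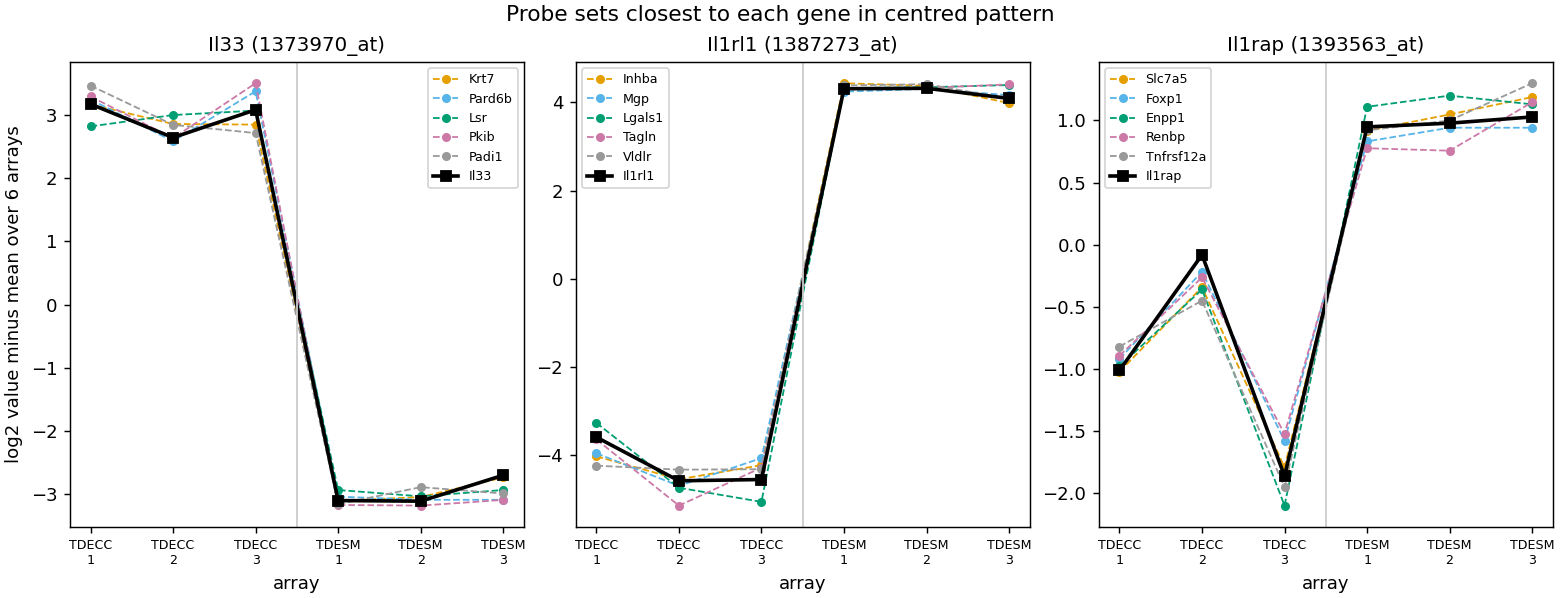
Log2 value minus its mean over the 6 arrays for the brightest probe set of Il33, Il1rl1 and Il1rap (black) and the 5 closest genes (dashed colours), by array. Il33 and Krt7 differ by 0.13 in root mean square, and the Il1rap panel shows the dip on TDECC replicate 3.

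The genes beside each of the 3 on the chromosome, in the order of RefSeq assembly GRCr8, were set beside them. All 6 measured neighbours of Il33, and all 6 of Il1rl1, had smaller differences than the gene itself, while Cldn1 had a larger one than Il1rap. Nothing is read from this, since the genes were chosen on this contrast and most genes would differ less. The nearest measured neighbours of Il33 are Ranbp6 on 1 side and Uhrf2 on the other. Uhrf2, a ubiquitin ligase that binds modified DNA, was lower in TDESM by 1.85 (9.82 ± 0.20 in TDECC and 7.98 ± 0.02, adjusted p = 4.80e-05 by limma), and Brd10, beyond Ranbp6, was lower by 1.88 (adjusted p = 0.000318). Ranbp6 itself, an importin, read 8.33 and 8.63 and did not pass (adjusted p = 0.0692). Mlana was higher by 0.54 (adjusted p = 0.00722), while Gldc and Mbl2 did not pass.

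Il1rl1 lies in the cluster of interleukin 1 receptor genes. Its measured neighbours were Il1rl2, Il1r1 and Il1r2 on 1 side and the sodium-proton exchangers Slc9a4 and Slc9a2, then Mfsd9, on the other. Of these 6 only Il1r1 passed, higher in TDESM by 1.03. Il18r1 and Il18rap, of the same receptor family, had no probe set that names them alone, so closer genes may have been skipped. Il1rl2, a receptor of the same family and the nearest measured gene on its side, read 4.47 ± 0.26 in TDECC and 4.52 ± 0.04 in TDESM, and Slc9a4 read 3.15 ± 0.21 and 3.00 ± 0.12. Of the neighbours of Il1rap, Cldn1, a tight junction claudin, was lower in TDESM by 4.30 (adjusted p = 9.47e-06) and Tp63, a transcription factor of basal epithelium, by 1.41. Ccdc50 was higher by 0.74 and Cldn16 by 0.54, and Gmnc and Fgf12 did not pass.

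**Figure D4:**
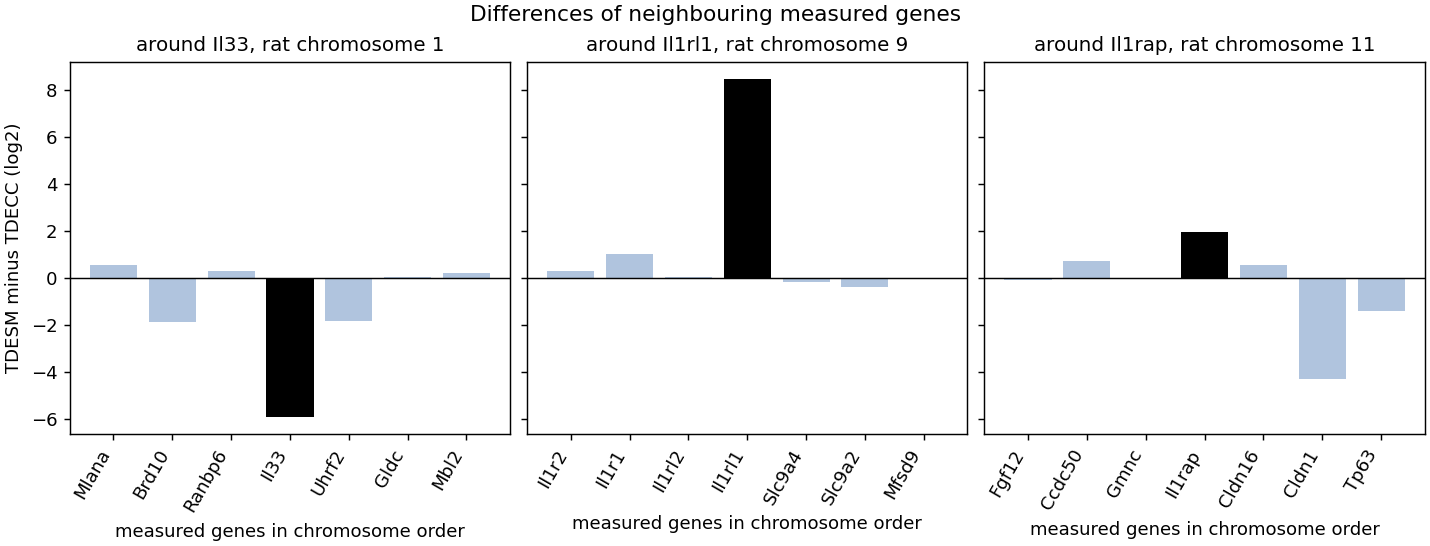
Difference in mean log2 value, TDESM minus TDECC, of the 3 nearest measured genes on each side of Il33, Il1rl1 and Il1rap (black bars, brightest probe set), in chromosome order with no distances. Around Il1rl1, at 8.48, no measured neighbour exceeds the 1.03 of Il1r1, and genes without a probe set of their own are left out.

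The other genes of the pathway come from lists chosen for what their genes do, with earlier results of these arrays known, and were tested by limma over all 14217 genes with a threshold of 0.05 on the adjusted p. Of all genes 42.7% passed, 22.1% higher and 20.6% lower in TDESM, and the median gene differed by 0.003. This split rests on how the arrays are scaled. Of the calls 3135 were higher and 2930 lower with the deposited values, 5384 and 1440 centred on housekeeping genes, and 905 and 11282 centred on the poly-A controls. The median gene moved by 0.48 and -1.27 under these, and all differences below are set against the median gene as deposited. Centring moves all genes of an array by 1 amount. With poly-A centring the adjusted p of Cxcl1, a chemokine gene, was 2.77e-27 by limma, against 0.0848 as deposited. Calls and p-values with poly-A centring are therefore not taken as reliable, and only its shift of the differences is read. Counts with that centring are printed below only to show the shift, beside its 905 higher and 11282 lower of all 14217 genes. Counts centred on housekeeping genes stand beside 5384 and 1440.

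Of 7 measured ligands and inhibitors of the interleukin 1 family, 0 were higher and 3 lower in TDESM (42.9%, against 42.7% of all genes). Their median difference was -0.66, and 0 were higher and 4 lower by limma at an unadjusted p under 0.05. The share of all genes at that unadjusted threshold was not counted, so nothing is read from the 4. Il1a, like Il33 a nuclear alarmin, read 10.82, 10.00 and 12.27 in TDECC and 3.78, 3.43 and 3.59 in TDESM, a difference of -7.43 (SE 0.52, adjusted p = 3.65e-05). The receptor antagonist Il1rn was lower by 2.22 (adjusted p = 0.000827) and Il36rn, a receptor antagonist of the same family, by 1.83 (adjusted p = 0.000466). Il1b read 5.27 ± 0.16 and 5.29 ± 0.28 and did not pass. Il18 read 4.08 ± 0.52 and 3.42 ± 0.04 (adjusted p = 0.0773), and passed without TDECC replicate 1 (-0.80, adjusted p = 0.0494) or replicate 3 (-0.35, adjusted p = 0.0454).

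Of 4 other measured receptors of the family, 1 was higher and 1 lower (50%, against 42.7% of all genes). Centred on the poly-A controls the counts were 0 and 3. Il1r1, the receptor of interleukin 1, which also pairs with Il1rap, read 8.83 ± 0.29 in TDECC and 9.86 ± 0.19 in TDESM (SD, n = 3 each; adjusted p = 0.00367). Sigirr, a receptor known to dampen ST2 signalling, went against Il1rl1, at 8.13, 8.00 and 7.89 in TDECC and 5.01, 5.31 and 5.32 in TDESM (difference -2.79, adjusted p = 6.47e-06). Il1r2, the decoy receptor of interleukin 1, stayed near the floor at 3.35 and 3.63, and did not pass. Il18r1 was not measured by a probe set that names it alone.

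Of 28 measured genes from MyD88 to NF-kB and MAP kinases, 8 were higher and 12 lower in TDESM (71.4%, against 42.7% of all genes), with a median of -0.22. The list was bright, with median levels of 9.15 in TDECC and 8.04 in TDESM, against 5.85 and 5.8 over all probe sets other than controls. Its share is not set against genes of like level, so nothing is read from the excess. With a log2 difference of at least 1, 8 of the 28 passed, against 3623 of all 14217 genes. With poly-A centring 0 were higher and 22 lower, and centred on housekeeping genes 8 and 7. Genes acting next to the receptor went both ways. Myd88, the adaptor, read 8.78 ± 0.34 in TDECC and 9.79 ± 0.08 in TDESM (difference 1.01, adjusted p = 0.00395). Irak1 was higher by 0.67 (0.45 averaged over its probe sets), Irak3, an inhibitory member of that kinase family, by 0.96, Map2k6 by 0.88, and Nfkb1 by 0.72. Irak2, named after its values were seen, differed by -2.43 (adjusted p = 0.0104). Myd88, Irak1, Irak3, Map2k6, Nfkb1 and Il1r1 all turned below 0 with poly-A centring, where none of the 6 passed (adjusted p from 0.0790 to 0.482). Irak4 read 3.67 and 3.71 and Traf6 7.72 and 7.78, and neither passed.

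Of genes that regulate NF-kB, 3 had the largest negative differences of this list. Nfkbia, the inhibitor of NF-kB, read 11.02, 12.25 and 13.41 in TDECC and 8.01, 8.12 and 8.51 in TDESM (difference -4.01, adjusted p = 0.00102). Tnfaip3, the enzyme A20, was lower by 4.16 (adjusted p = 0.000734) and Nfkbiz, a nuclear regulator of NF-kB, by 3.40, or 1.79 averaged over its probe sets. These genes were highest on TDECC replicate 3, where Tnfaip3 read 13.32 against 11.09 and 11.66. Rela, an NF-kB subunit, was lower by 0.87 (adjusted p = 0.00149), and did not pass centred on housekeeping genes (adjusted p = 0.143).

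In TDESM 2 of 20 NF-kB target genes were higher and 8 lower (50%, against 42.7% of all genes). Their median difference was -0.90, and 4 were higher and 8 lower centred on housekeeping genes. Those higher were both cytokine genes. Il6 read 3.64, 3.40 and 3.83 in TDECC and 6.29, 5.82 and 6.31 in TDESM (difference 2.52, adjusted p = 4.80e-05). Ccl2, a chemokine for monocytes, was higher by 2.26 (3.85 ± 0.29 and 6.11 ± 0.08, adjusted p = 4.69e-05). The chemokines Cxcl2 and Ccl20 were lower by 6.54 (adjusted p = 0.00187) and 5.02 (adjusted p = 0.00744), and Bcl3, a nuclear partner of NF-kB, by 4.98, or 2.52 averaged over its probe sets. Cxcl1 read 11.98, 9.77 and 14.07 in TDECC and 9.75, 9.69 and 9.10 in TDESM. Its adjusted p was 0.0848, and 0.00482 without TDECC replicate 2.

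Interleukin 33 is cut by proteases, which can raise or end its activity, and leaves some cells through gasdermin pores. Of 13 measured proteases, their inhibitors and pore genes, 3 were higher and 3 lower in TDESM (46.2%, against 42.7% of all genes), with a median of -0.14. With poly-A centring 1 was higher and 10 lower, and with housekeeping centring 5 and 3. Serpinb1a, an inhibitor of neutrophil elastase, read 12.20 ± 0.98 in TDECC and 5.41 ± 0.27 in TDESM (difference -6.79, adjusted p = 2.92e-05), and Capn1, a calpain, was lower by 1.73 and Casp8 by 1.42. Serpinb9, the granzyme B inhibitor, was higher by 3.42 (adjusted p = 0.0109), from TDECC values of 9.78, 6.27 and 7.82. Casp1 read 4.98, 8.99 and 7.62 in TDECC and 4.47 to 4.65 in TDESM, and its call depended on the arrays (adjusted p = 0.0516, or 0.000443 without TDECC replicate 1). Gsdmd and Capn2 were higher by 1.38 and 0.71. Both calls were lost without any 1 TDESM replicate (adjusted p from 0.0838 to 0.116 and from 0.0851 to 0.103), and that of Gsdmd also without TDECC replicate 2 (adjusted p = 0.0714). Without a TDESM replicate the differences stayed at 1.30 to 1.44 for Gsdmd and 0.69 to 0.73 for Capn2. Calls over all genes then fell from 6065 to between 4605 and 4835.

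Of 21 genes of other epithelial alarmins and the type 2 cytokine axis, 4 were higher and 2 lower in TDESM (28.6%, against 42.7% of all genes), with a median of -0.04. With poly-A centring 2 were higher and 17 lower. Tslp, an alarmin like Il33, went the other way from it. It read 4.78, 3.97 and 5.46 in TDECC and 6.90, 6.82 and 7.14 in TDESM (difference 2.22, adjusted p = 0.00209). Arg1, arginase, was higher by 3.34, Rora by 1.21 (0.68 averaged over its probe sets, and -0.06 with poly-A centring) and Il17ra, named after its values were seen, by 0.98. Il4r, the receptor chain for interleukins 4 and 13, was lower by 2.05 (8.27 ± 0.46 and 6.21 ± 0.13) and Gata3 by 1.78. Il13 itself read 4.03 ± 0.11 and 3.92 ± 0.20 and did not pass. Areg, a growth factor of the EGF family, read 11.48, 11.30 and 13.19 in TDECC and 10.54 to 10.68 in TDESM (adjusted p = 0.0514), and passed without any 1 TDECC replicate (adjusted p from 0.00385 to 0.0415).

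**Figure D5:**
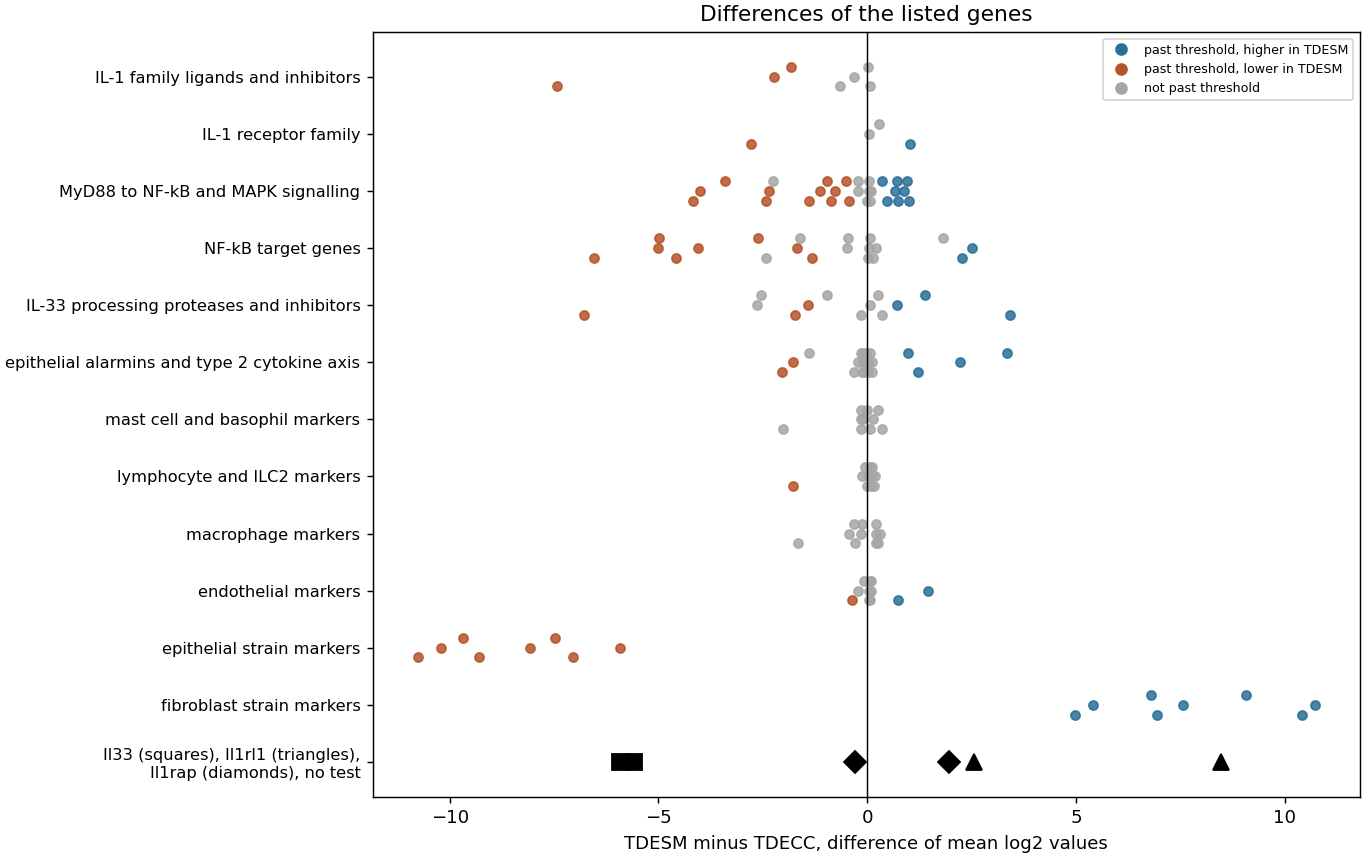
Difference in mean log2 value, TDESM minus TDECC, of each listed gene (points, coloured by limma call) by list, with the 6 probe sets of Il33, Il1rl1 and Il1rap in black at the bottom, untested. Ligands of the interleukin 1 family lie at or left of 0.07, and the markers of immune cells mostly sit near 0.

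ST2 is best known on mast cells, type 2 lymphoid cells, macrophages and some endothelial cells, so their markers were set beside the Il1rl1 values. Of 10 mast cell and basophil genes and 11 macrophage genes, 0 were higher or lower by limma, against 42.7% of all genes. At an unadjusted p under 0.05, 1 and 2 were lower, and the share of all genes at that threshold was not counted. Centred on the poly-A controls all 10 and all 11 were lower, where 11282 of all 14217 genes were. Centred on housekeeping genes 3 and 5 were higher, where 5384 of all genes were. Nothing about these cells is read from either count. Of 11 lymphocyte genes 1 was lower, Gata3 (9.09% called). The endothelial list of 11 had 2 higher and 1 lower (27.3% called). Its counts were 0 and 9 centred on the poly-A controls, and 3 and 0 on housekeeping genes. The array medians of these lists lay between 4.10 and 4.59 in TDECC and between 4.12 and 4.79 in TDESM. Kit, the mast cell receptor, read 4.49 ± 0.22 in TDECC and 4.35 ± 0.02 in TDESM, and Ptprc, CD45, 3.68 ± 0.16 and 3.80 ± 0.09. The part of such cells in the Il1rl1 reading was not tested. Genes of these lists with higher readings were named after their values were seen. Tpsb2 read 6.21 in TDECC and 6.57 in TDESM, and Lck 6.08 and 6.17, and neither passed (adjusted p = 0.137 and 0.772). Cd14 read 10.39 in TDECC and 8.73 in TDESM and Gata2 7.65 and 5.64, and neither passed (adjusted p = 0.0991 and 0.0595). Egfl7 was higher by 1.45 and Erg by 0.75, and with poly-A centring neither passed (0.17 and -0.52). Pecam1, which marks endothelium, read 3.80 and 3.43, both near the floor.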

How the data were processed

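The labels name 6 arrays, 3 of each strain, grouped by their titles. Total RNA was extracted with Trizol and labelled by the Affymetrix procedure, per the labels' protocols. The authors deposited log2 values that, per the submitters' processing notes, come from RMA (version not stated there). RMA as commonly applied gives all arrays 1 distribution, which removes differences in total mRNA. The table has no detection calls.

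Of 31099 probe sets, 57 were controls. Genes were named from the platform annotation, and 0 symbols changed through the RefSeq table. For tests across genes a gene was its probe set with the highest mean. limma 3.58.1 in R 4.3.3 (lmFit, eBayes) was used, as a two-sided test of TDESM minus TDECC, adjusted by Benjamini and Hochberg over 14217 genes, and was tested on simulated data. 

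The members and lists were chosen with earlier results of these data known. By the rule for named genes, each list gave the 3 largest differences each way past the threshold without overlap, and a set of best known genes was always named. Alternatives were cyclic loess, centring on 10 housekeeping genes or 24 poly-A control probe sets, leaving out the dimmest genes, trend and robust eBayes, the replicate block, a minimum log2 difference of 1, the mean of probe sets and each array left out. Promoter windows are those of RefSeq on GRCr8.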

Additional observations from a re-analysis of the deposited data

How the results depend on the processing

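The directions of Il33 and Il1rl1 held under each scaling tried and with each array left out. Centred on housekeeping genes the differences were -5.46 and -5.11 for Il33, 3.02 and 8.95 for Il1rl1, and 0.19, a change of sign, for Il1rap 1387507_at. Centred on the poly-A controls they were -7.21 and -6.86 for Il33, 1.28 and 7.21 for Il1rl1, and -1.56 and 0.70 for Il1rap. Averaging probe sets gave 5.52 for Il1rl1 and 0.84 for Il1rap, a mean over probe sets of opposite sign. With each array left out Il33 ran from -6.10 to -5.83 and from -5.72 to -5.40, Il1rl1 from 2.39 to 2.70 and from 8.31 to 8.81, and Il1rap from -0.42 to -0.15 and from 1.53 to 2.42.

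Genes called numbered 6065, from 4605 to 6437 with each array left out, 12187 centred on the poly-A controls and 3623 with a log2 difference of at least 1. Probe sets called numbered 11470, then 8544 to 11991, 27566 and 6803. The counts centred on the poly-A controls carry the limit given above, that p-values with that centring are not taken as reliable. Centred on the poly-A controls, 7 ligands of the interleukin 1 family, 19 NF-kB targets (2 higher and 17 lower), 11 protease and pore genes (1 and 10), 19 alarmin and type 2 genes (2 and 17), 22 signalling genes, 10 mast cell, 11 lymphocyte, 11 macrophage and 9 endothelial genes were called, with 0 higher in each list given without a split. Centred on housekeeping genes, 3 of 10 mast cell genes (all higher), 5 of 11 lymphocyte genes (4 higher and 1 lower) and 5 of 11 macrophage genes (all higher) were called. Of all 14217 genes 6824 were called with that centring, 5384 of them higher. A log2 difference of at least 1 left 8 of 28 signalling genes and 1 of 11 endothelial genes, against 3623 of all 14217 genes. Leaving out the dimmest genes gave 1 mast cell and 1 endothelial gene, where 5269 genes were called in all. With each array left out, mast cell and macrophage calls ran from 0 to 1.

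Deviations of same-numbered arrays from their strain means correlated at -0.07, 0.02 and -0.14, so no pairing by replicate number was seen. With 3 arrays a strain this cannot exclude that same-numbered arrays were handled together. With the replicate block 1 mast cell gene was called where 0 were without it, and the other list counts stayed within 1.5 times. Under it Casp1 (adjusted p = 0.0315) and Areg (0.0423) passed and Pecam1 (0.120) did not. Pecam1 was also lost centred on housekeeping genes and without TDECC replicate 2 or 3 or any 1 TDESM replicate (adjusted p from 0.0848 to 0.132). The causes of these changes were not tested. With 3 arrays a strain and no detection calls, differences as small as that of Il1rap 1387507_at are poorly resolved.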

Other observations

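Over the 14217 genes the TDECC arrays were less alike (r from 0.968 to 0.975 between pairs) than the TDESM arrays (0.995 to 0.998). Each gene was its brightest probe set, and genes are not independent replicates. The brighter Il1rap probe set read lowest on TDECC replicate 3, at 5.55, where Nfkbia (13.41), Tnfaip3 (13.32), Cxcl2 (12.67), Ccl20 (11.86) and Il1a (12.27) read highest. These 5 genes did not share 1 order, since Cxcl2 and Il1a were lowest on TDECC replicate 2 and Nfkbia and Tnfaip3 on replicate 1. Both Il33 probe sets were highest on TDECC replicate 1, at 14.14 and 14.07, and lowest on replicate 2, at 13.61 and 13.44. Cxcl2 spread from 8.17 to 12.67 over the TDECC arrays and from 3.55 to 3.76 over the TDESM arrays. These are values of 3 arrays of 1 strain, and no relation between them was tested.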
